A study of Homo sapiens with 30 samples.

Results

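The genes described here are 10 transcription regulators that set or maintain the identity of plasma cells and B cells: IRF4, PRDM1, IKZF1, IKZF3, POU2AF1, ELL2, PAX5, BACH2, BCL6 and SPIB. They were taken by symbol from both expression tables, 10 of 18159 genes in the series, and not by their measured values. All 10 were present in both tables.

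RNA was measured by poly-A RNA sequencing in OPM2 and Delta47. Both are human myeloma lines, that is, plasma cell cancers grown in culture. The WT cells of each line were unedited. KO1 and KO2 are knockout clones of the transcription factor gene FOXM1, made with Cas9 and guides to exon 2 and grown by limiting dilution, so each knockout group is 1 clone. In OPM2, KO1EV is KO1 with an empty vector and KO1R is KO1 with a FOXM1 overexpression vector. In Delta47, KO2R is KO2 with the FOXM1 overexpression vector; its columns carry the letter R without the clone number. The vector encodes the FOXM1c isoform, was delivered by lentivirus and was followed by sorting on GFP, a step that WT, KO1 and KO2 are not stated to have had. The Delta47 empty-vector group is not analysed here, so KO2R could be set only against untransduced KO2 and WT, and the vector, the sort and FOXM1c cannot be told apart there. Each of the 9 groups had 3 libraries.

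Plasma cells arise when a B cell shuts down its own program and turns on antibody secretion. PAX5, BACH2, BCL6 and SPIB hold the B cell and germinal centre state. IRF4 and PRDM1 (the gene for BLIMP1) drive the plasma cell state, and PRDM1 and the B cell repressors BCL6, BACH2 and PAX5 act against each other. POU2AF1 is the coactivator OCA-B of the octamer factors, and ELL2 is an elongation factor that favours the secreted form of immunoglobulin heavy chain mRNA. IKZF1 (Ikaros) and IKZF3 (Aiolos) are zinc finger factors that support IRF4 in myeloma and are degraded through CRBN under lenalidomide.

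FOXM1 binds forkhead sites and is recruited to cell cycle homology regions with a MYB complex. For that reason the bases before the annotated start sites of the members were searched. RefSeq promoter sequences (GRCh38.p14) matched 7 of the 10 members with 11 start sites; IKZF3, POU2AF1 and ELL2 had no entry. The windows cover 250 bases before each start, and 4 motifs were searched on both strands: TAAACA (forkhead), TTTGAA (cell cycle homology region), an IRF motif (GAAA and GAAA with any 2 bases between them) and ATGCAAAT (octamer). They occur in 11.0%, 13.3%, 3.02% and 1.63% of all 35116 windows. The first PRDM1 start was the single member window with a match, shown here beside IRF4, the member with the highest FPKM in OPM2. The PRDM1 window is chr6:106086086-106086335 (plus strand) and the IRF4 window is chr6:391502-391751 (plus strand). Capitals mark the matches, which lie on the minus strand and so read as the reverse complements TGTTTA (bases -243 to -238 from the start) and TTCAAA (bases -197 to -192) and do not overlap.
PRDM1: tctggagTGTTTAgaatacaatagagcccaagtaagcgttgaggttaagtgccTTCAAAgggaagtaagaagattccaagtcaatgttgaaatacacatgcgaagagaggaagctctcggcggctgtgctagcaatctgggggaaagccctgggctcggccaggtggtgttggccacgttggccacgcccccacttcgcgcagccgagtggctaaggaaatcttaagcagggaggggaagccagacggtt
IRF4: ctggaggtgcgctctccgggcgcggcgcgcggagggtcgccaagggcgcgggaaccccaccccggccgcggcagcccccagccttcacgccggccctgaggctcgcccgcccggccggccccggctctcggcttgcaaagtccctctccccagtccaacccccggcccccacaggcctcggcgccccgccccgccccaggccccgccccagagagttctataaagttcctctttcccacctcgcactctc
The IRF4 window is 76.0% G or C and the PRDM1 window 53.6%. None of the 4 motifs was found in the IRF4 window, which says only that these letters are not in it.

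OPM2 values are FPKM, which are scaled per length, so levels can be compared between genes. Delta47 values are the authors' expression value, whose unit the table does not name. The tables were normalised separately, so all tests were within a line, and no level was compared across lines. Column totals were 510776 to 566016 in OPM2 and 534185 to 633778 in Delta47. Such totals do not give a depth, which is unknown. OPM2 WT cells had a FOXM1 level of 176 ± 0.804 FPKM (SD, n = 3), beside 92.1 ± 1.07 for KO1, 62.1 ± 6.69 for KO2, 107 ± 1.85 for KO1EV and 278 ± 14.4 for KO1R. Delta47 WT cells had 88.9 ± 1.88, beside 47.9 ± 1.85 for KO1, 46.2 ± 0.883 for KO2 and 99.4 ± 4.36 for KO2R (authors' expression value). Transcript of the targeted gene was thus still measured in every knockout library.

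Markers were checked against the label of both lines. All 20 genes of a plasma cell list were in both tables, of which 3 (OPM2) and 5 (Delta47) were below 1 in every library. Their summed values were 8581.79 to 11118.11 in OPM2. In Delta47 the sum was 5640.3 to 5802.68 in WT, 5789.9 to 5939.87 in KO1, 4183.47 to 4204.08 in KO2 and 5260.86 to 5300.47 in KO2R. A list of 24 B cell genes had 21 in each table, of which 13 (OPM2) and 14 (Delta47) were below 1 in every library. Its sum was 22.99 to 33.56 in OPM2. In Delta47 it ran from 46.1 to 49.38 in WT, 66.32 to 70.23 in KO1, 59.32 to 63.2 in KO2 and 74.74 to 79.69 in KO2R, mostly from CD79B (30.03 to 66.94), a B cell receptor chain. MS4A1 (CD20) was at most 0.02 in OPM2, EBF1 at most 0.11 and SPI1 at most 0.08 in any library. T cell genes summed to at most 0.58 in OPM2 and to 150.01 to 190.58 in Delta47, where CD4 made up 147.82 to 188.54. Stromal and endothelial genes summed to 1.73 to 1.84 in Delta47 WT, 3.23 to 3.61 in KO1, 14.44 to 16.29 in KO2 and 13.63 to 15.23 in KO2R, and PECAM1 averaged 1.19 in WT and 14.5 in KO2. Epithelial genes summed to 5.6 to 6.54 in Delta47 WT, 8.14 to 8.69 in KO1, 9.81 to 11.38 in KO2 and 12.41 to 13.05 in KO2R, most of it EPCAM (1.87 to 5.72) and KRT18 (1.1 to 7.65). In OPM2 the epithelial sum was 4.4 to 5.47 in WT and 9.65 to 11.68 in KO1R, mainly from ELF3 (3.68 to 10.74 over all libraries). Whether these markers play a part in the results below was not tested.

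In OPM2 the members spanned a wide range of levels. IRF4 had the highest FPKM (282.07 to 478.77), above 98.9% of all genes in the table by its mean, followed by POU2AF1 (134.66 to 210.11) and PRDM1 (82.54 to 131.07). IKZF1 (31.6 to 48.12), ELL2 (10.25 to 19.89) and IKZF3 (4.65 to 8.08) came next, then BACH2 (2.42 to 3.27). Each of these neighbours in the order was separated by its range over the 15 libraries. BCL6 (0.11 to 0.94), SPIB (0.27 to 0.7) and PAX5 (0 to 0.03) were low, and the ranges of BCL6 and SPIB overlapped. PAX5, the B cell identity factor, was at most 0.01 in Delta47, and SPIB, an ETS factor of B cells, was 0.22 to 0.39 there. No fold change is given for PAX5 or SPIB, because neither reached the level needed for testing.

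**Figure D1:**
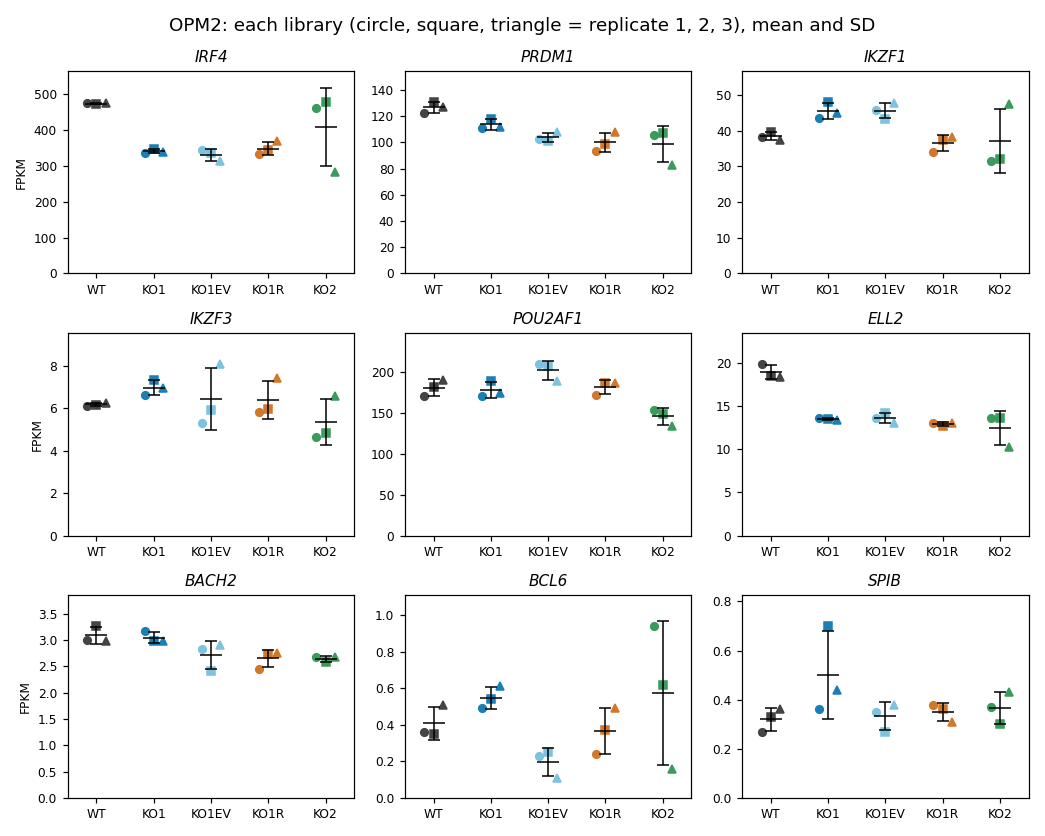
FPKM (y axis, from 0) of 9 members in the OPM2 groups, with each library as a point and the mean and SD as bars. IRF4 and ELL2 are high in all 3 WT libraries, and KO2 replicate 3 (triangle) sits away from the other KO2 libraries for IRF4 and IKZF1.

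**Figure D2:**
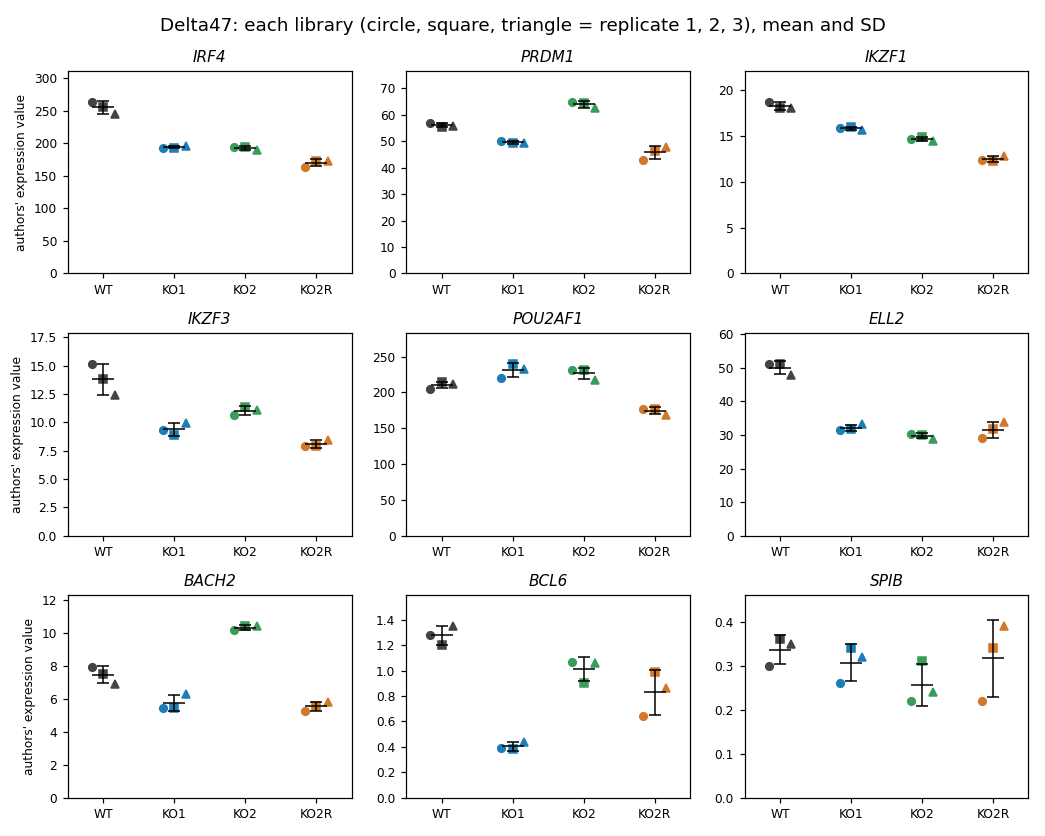
The authors' expression value (y axis, from 0) of 9 members in the Delta47 groups, with each library as a point and the mean and SD as bars. ELL2 is at 47.72 or more in WT and at 33.93 or less in the other groups, while BACH2 and PRDM1 are highest in KO2.

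A member was tested where at least 3 libraries of the line reached a value of 1, which kept 7 members in OPM2 (not PAX5, BCL6 or SPIB) and 8 in Delta47 (not PAX5 or SPIB). Tests were limma's moderated tests on log2(value + 1), with Benjamini-Hochberg adjustment over all genes tested in the line. A call is an adjusted p below 0.05. Log2 fold changes are on that scale with their standard error (SE), and they understate the change of genes with low values. Whether replicates were separate cultures is not stated, and the p-values rest on a spread among libraries that may be technical. In bulk RNA, fewer cells expressing a gene and less RNA per cell cannot be told apart.

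In OPM2 KO1 against WT, 2 of the 7 tested members were called, both lower, where 21.2% of all tested genes were called (14.5% higher, 6.72% lower). In KO2 against WT, 3 were called, all lower, where the share of all genes was 14.4% (6.54% higher, 7.82% lower). With only the KO2 and WT libraries in the fit, the calls for ELL2, PRDM1 and POU2AF1 were lost (limma adjusted p = 0.0662, 0.183 and 0.144). In Delta47 KO1 against WT, 8 of 8 tested members were called, 7 lower and 1 higher, in a comparison in which 52.6% of all tested genes were called (23.7% lower, 28.9% higher). In Delta47 KO2 against WT, 7 were called, 4 lower and 3 higher, against 43.6% of all genes (15.2% lower, 28.4% higher). BCL6 in Delta47 passed the level only through WT and KO2 libraries, so its inclusion favours a difference, and these counts are read as descriptions. Comparisons with the same WT libraries are not independent of each other.

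**Figure D3:**
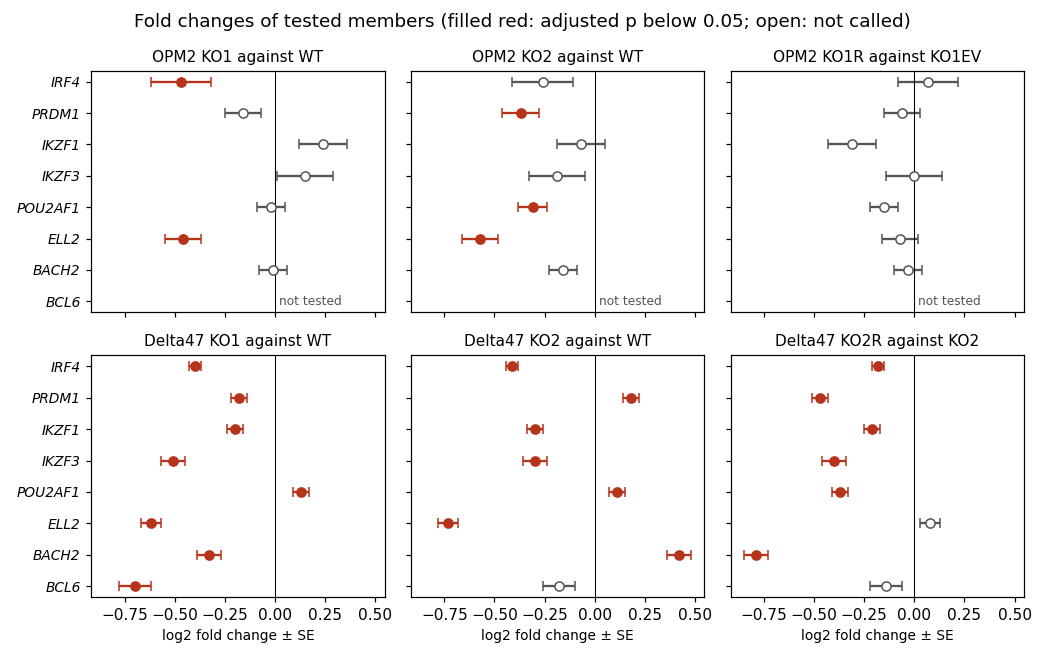
Log2 fold change ± SE (x axis) of each tested member (y axis) in 6 comparisons, filled red where the adjusted p is below 0.05. ELL2 lies left of 0 in all 4 knockout panels, while PRDM1 and BACH2 lie on opposite sides of 0 in the KO1 and KO2 panels of Delta47.

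ELL2, the elongation factor of antibody mRNA processing, was called lower in both clones of both lines. Its FPKM in OPM2 was 19.89, 18.53 and 18.36 in WT, 13.66, 13.47 and 13.39 in KO1, and 13.67, 13.57 and 10.25 in KO2. No knockout library reached the WT range. The log2 fold change was -0.46 ± 0.09 in KO1 (limma adjusted p = 0.00294) and -0.57 ± 0.09 in KO2 (adjusted p = 0.000615). In Delta47 its value was 51.16, 51.19 and 47.72 in WT, 31.4, 31.67 and 33.17 in KO1, and 30.19, 30.11 and 28.85 in KO2. Here too the groups did not overlap WT, and the log2 fold changes were -0.62 ± 0.05 (limma adjusted p = 4.23e-08) and -0.73 ± 0.05 (adjusted p = 6.2e-09). With the FOXM1 vector, ELL2 was 13.05, 12.64 and 13.02 in OPM2 KO1R beside 13.65, 14.25 and 13.05 in KO1EV, and 29.04, 31.67 and 33.93 in Delta47 KO2R. All of these libraries lay below WT, and KO2R overlapped KO2 in its lowest library. The KO2R against KO2 difference of 0.08 was not called (limma adjusted p = 0.175). It was called higher with the length trend removed (0.33, limma adjusted p = 4.74e-05), with quantile scaling (0.15, adjusted p = 0.0155) and without KO2R replicate 1 (0.14, adjusted p = 0.0219). ELL2 in KO1R remained called below WT in OPM2 (log2 fold change -0.52, limma adjusted p = 0.00141) and in Delta47 KO2R (-0.65).

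Other subunits and partners of the elongation machinery were read from a list of 17 genes. In OPM2 KO1, 3 of 17 tested were higher and 2 lower than WT, and in KO2 0 were higher and 1 lower. The shares of all tested OPM2 genes were 14.5% higher and 6.72% lower in KO1, and 6.54% and 7.82% in KO2. In Delta47, 1 of 16 tested was higher and 8 lower in KO1, and 3 were higher and 3 lower in KO2. The shares of all tested Delta47 genes were 28.9% higher and 23.7% lower in KO1, and 28.4% and 15.2% in KO2. EAF2, which binds ELL proteins, was lower in OPM2 KO1 (log2 fold change -0.45), in Delta47 KO1 (-1.02) and in Delta47 KO2 (-1.61), and it was higher in KO2R than in KO2 (0.51). EAF2 was not called in OPM2 KO2 (-0.14, limma adjusted p = 0.516). The list's median was -0.16 in Delta47 KO1 and -0.03 in KO2, beside 0.02 and 0.05 over all tested genes. With the length trend removed, 2 were higher and 6 lower in Delta47 KO1, and 1 higher and 4 lower in KO2, where 23.4% and 20.9% of all genes were then called lower.

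IRF4, the factor on which myeloma cells depend, was lower in Delta47 in both clones. Its Delta47 values were 264.11, 256.71 and 245.29 in WT, 192.29, 193.55 and 195.3 in KO1, and 194.36, 193.71 and 189.2 in KO2. Each knockout library lay below every WT library, and KO1 and KO2 overlapped. The log2 fold changes were -0.40 ± 0.03 (limma adjusted p = 8.93e-08) and -0.41 ± 0.03 (adjusted p = 6.87e-08). In OPM2 the FPKM was 473.97, 472.6 and 474.39 in WT and 336.98, 347.91 and 338.49 in KO1, which do not overlap. That log2 fold change of -0.47 ± 0.15 was called (limma adjusted p = 0.0355). The call was lost when any 1 of the 6 WT and KO1 libraries was left out (adjusted p 0.0849 to 0.0926), with no filter (0.0533) and with quantile scaling (0.0644), although the log2 fold change stayed between -0.49 and -0.42. Without the libraries that stood apart, described next, it was called at 7.28e-08.

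The second OPM2 clone was not uniform for IRF4. Its KO2 libraries were 461.59, 478.77 and 282.07 FPKM, so that replicate 1 and replicate 2 lay near WT and replicate 3 lay below every other OPM2 library. Over all 3 the log2 fold change was -0.26 ± 0.15 (limma adjusted p = 0.28). Without replicate 3 it was -0.01 (adjusted p = 0.906), and IRF4 was then called higher in KO2 than in KO1 by 0.46 (adjusted p = 5.23e-06).

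KO2 replicate 3 stood apart from its own group across the table. The SD over genes of its log2 deviation from the other KO2 libraries was 0.533, that of KO1EV replicate 3 was 0.271, and the other OPM2 libraries had 0.1 to 0.282, with the highest in KO2. Among members, KO2 replicate 3 deviated by -0.73 for IRF4, -0.36 for PRDM1, -0.38 for ELL2 and -0.17 for POU2AF1 (log2). It deviated upward for IKZF1 (0.56) and IKZF3 (0.40), and hardly for BACH2 (0.02). Without both libraries, 4 members were called in KO1 against WT and 5 in KO2 against WT, while the calls over all genes rose from 2187 to 6052 and from 1480 to 4227.

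**Figure D4:**
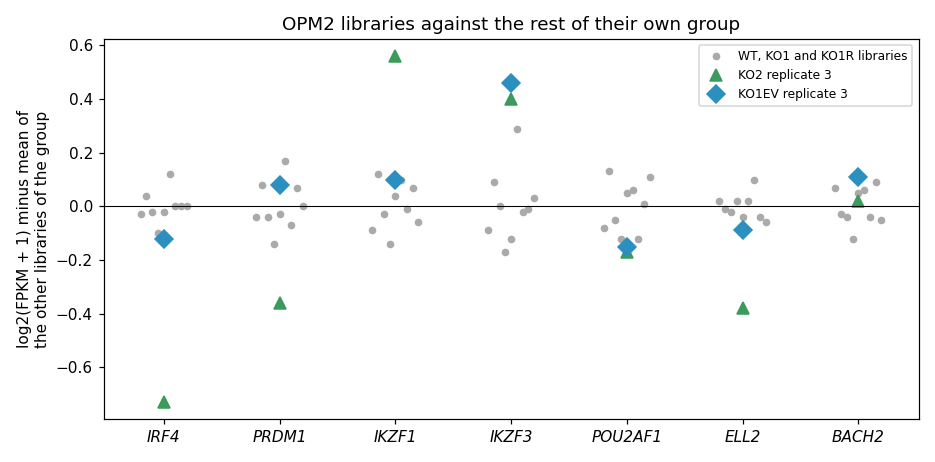
Deviation (y axis, log2) of an OPM2 library from the rest of its own group, for 7 members (x axis); triangles are KO2 replicate 3, diamonds KO1EV replicate 3, and grey points the libraries of WT, KO1 and KO1R. KO2 replicate 3 is lowest for IRF4 at -0.73 and highest for IKZF1 at 0.56.

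PRDM1, which encodes the repressor BLIMP1, differed between the Delta47 clones. Its values were 56.84, 55.52 and 55.88 in WT, 50.01, 49.17 and 49.38 in KO1, and 64.9, 64.41 and 62.34 in KO2. These 3 groups did not overlap, with KO1 lowest and KO2 highest. PRDM1 fell in KO1 by 0.18 (limma adjusted p = 0.00125) and rose in KO2 by 0.18 (adjusted p = 0.0011) on the log2 scale. KO2 exceeded KO1 by 0.36 (limma adjusted p = 2.74e-06). In OPM2 the FPKM was 122.78, 131.07 and 126.71 in WT, 111.37, 118.17 and 111.51 in KO1, and 105.96, 107.13 and 82.54 in KO2. Both clones lay below the WT range. KO2 was called lower by -0.37 ± 0.09 (limma adjusted p = 0.0142), and KO1 was not called (-0.16, adjusted p = 0.215). At the same -0.16, KO1 was called with only KO1 and WT in the fit (limma adjusted p = 0.014). It was also called without the libraries that stood apart (adjusted p = 0.01). The KO2 call was lost without WT replicate 2 (adjusted p = 0.0625) and was kept without KO2 replicate 3 (-0.25, adjusted p = 0.0053).

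POU2AF1, the octamer coactivator, was lower in OPM2 KO2 and slightly higher in both Delta47 clones. In OPM2 it was 170.75, 181.87 and 190.66 FPKM in WT, 171.36, 189 and 174.2 in KO1, and 154.22, 148.96 and 134.66 in KO2. KO1 overlapped WT (log2 fold change -0.02, limma adjusted p = 0.829), and KO2 lay below both. The KO2 log2 fold change was -0.31 ± 0.07 (limma adjusted p = 0.0116), and the difference from KO1 was -0.29 (adjusted p = 0.00972), the single member called in KO2 against KO1, where 29.9% of all genes were called (10.8% higher, 19.1% lower). The first of these calls was lost without WT replicate 3 (adjusted p = 0.0576), the second without KO1 replicate 2 (adjusted p = 0.0519) and with only KO1 and KO2 in the fit (adjusted p = 0.0925). In Delta47 the values were 205.47, 214.64 and 211.77 in WT, 220.84, 240 and 232.87 in KO1, and 231.72, 231.07 and 217.26 in KO2. Both clones lay above WT, by 0.13 (limma adjusted p = 0.00792) and 0.11 (adjusted p = 0.0353). With quantile scaling neither was called (0.03 and 0.09, adjusted p = 0.496 and 0.0653). The KO2 call was also lost without any 1 of 4 libraries (adjusted p up to 0.125), with no filter (0.0552) and with the trend over transcript length removed (0.377).

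The Ikaros family pair moved in the same direction in Delta47. IKZF1 was 18.69, 17.95 and 18.03 in WT, 15.79, 15.95 and 15.63 in KO1, and 14.59, 14.8 and 14.4 in KO2, with no overlap among the 3 groups. The log2 fold change was -0.20 in KO1 (limma adjusted p = 0.000918) and -0.30 for KO2 (adjusted p = 1.98e-05). IKZF3 was 15.16, 13.83 and 12.43 in WT, 9.33, 8.86 and 9.96 in KO1, and 10.61, 11.37 and 11.07 in KO2. Its WT libraries spread more than those of IKZF1 but stayed above both clones, and its log2 fold changes were -0.51 (limma adjusted p = 7.3e-06) and -0.30 (adjusted p = 0.00147).

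In OPM2 neither Ikaros factor was called in a knockout. IKZF1 was 38.21, 39.6 and 37.35 FPKM in WT, 43.67, 48.12 and 44.99 in KO1, and 31.6, 32.12 and 47.46 in KO2. KO1 lay above WT, with a log2 fold change of 0.24 that was not called (limma adjusted p = 0.159). KO2 fell on both sides of WT, and without replicate 3 IKZF1 was called lower in KO2 (-0.26, adjusted p = 0.00513). Without both libraries that stood apart, the KO1 difference of 0.24 was called (limma adjusted p = 0.000655). IKZF3 was 6.11, 6.14 and 6.26 FPKM in WT, 6.61, 7.3 and 6.95 in KO1, and 4.65, 4.82 and 6.58 in KO2. Its KO1 libraries lay above WT, whereas KO2 overlapped it, and neither difference was called (limma adjusted p = 0.426 and 0.405). Without both libraries that stood apart, IKZF3 was called lower in KO2 (-0.32, limma adjusted p = 0.00541). It was not called without KO2 replicate 3 alone (-0.32, adjusted p = 0.0622).

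CRBN, the receptor of the ubiquitin ligase that degrades IKZF1 and IKZF3 under lenalidomide, was 6.45 in Delta47 WT, 7.64 in KO1 and 6.85 in KO2. It was called higher in KO1 (log2 fold change 0.21, limma adjusted p = 0.0177). KO2R exceeded KO2 by 0.49 (adjusted p = 1.31e-05). No OPM2 comparison called it. Of the 14 genes of its ligase list, 4 were higher and 5 lower in Delta47 KO1, and 2 higher and 3 lower in KO2. All tested Delta47 genes had 28.9% called higher and 23.7% lower in KO1, and 28.4% and 15.2% in KO2. In OPM2 1 of 13 was higher and 1 lower in KO1, and 2 were higher in KO2. All tested OPM2 genes had 14.5% called higher and 6.72% lower in KO1, and 6.54% and 7.82% in KO2. With the length trend removed, 1 of the ligase list was higher and 3 lower in Delta47 KO1 (21.9% and 23.4% of all genes). In Delta47 KO2, 1 was then higher and 3 lower (18.4% and 20.9%). In OPM2, 1 was then higher and 2 lower in KO1 (8.89% and 11.1%), and 0 were called in KO2 (5.55% and 8.7%). Whether CRBN kept its call in that fit is not given here.

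BACH2, the repressor that delays plasma cell differentiation, differed between the Delta47 clones. Its values were 7.95, 7.5 and 6.91 in WT, 5.45, 5.47 and 6.32 in KO1, and 10.14, 10.4 and 10.41 in KO2. KO1 lay below WT and KO2 above it, with no overlap. BACH2 fell by 0.33 in KO1 (limma adjusted p = 0.000487), a call that was lost once the trend of fold change with transcript length was removed (-0.14, adjusted p = 0.0956). It rose by 0.42 in KO2 (limma adjusted p = 5.52e-05) and was 0.75 higher in KO2 than in KO1 (adjusted p = 2.34e-07). In KO2 against KO1, 5 members were called, 4 higher and 1 lower, where 42.1% of all genes were called (24.9% higher, 17.2% lower). BCL6 was among the 4, and it passed the level only through WT and KO2 libraries, so its inclusion favours a difference. IKZF1 was the member called lower (limma adjusted p = 0.0493), and that call was lost when any 1 of the 6 libraries was left out. In OPM2 BACH2 was 3.01, 3.27 and 2.99 FPKM in WT, 3.18, 2.99 and 2.98 in KO1, and 2.68, 2.58 and 2.68 in KO2. KO1 overlapped WT and KO2 lay below it, and neither was called (limma adjusted p = 0.891 and 0.126).

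BCL6, the germinal centre repressor, was low in all libraries. In Delta47 it was 1.28, 1.2 and 1.35 in WT, 0.39, 0.38 and 0.44 in KO1, and 1.07, 0.9 and 1.06 in KO2. KO1 lay well below the other groups, and KO2 lay below WT by a narrow gap. The log2 fold change was -0.70 ± 0.08 in KO1 and -0.18 in KO2, and KO2 exceeded KO1 by 0.52. BCL6 is among the tested members in the Delta47 counts of calls. These differences are read only as descriptions, because 5 of 12 libraries, all WT or KO2, reached the level that let BCL6 in. OPM2 BCL6 was 0.36, 0.35 and 0.51 FPKM in WT, 0.49, 0.54 and 0.61 in KO1, and 0.94, 0.62 and 0.16 in KO2, and it was not tested. Annotated exons of antisense genes overlap BCL6 by up to 318 bases, BACH2 by 232, IKZF1 by 67 and ELL2 by 36, and a pseudogene on the opposite strand overlaps POU2AF1 by 236 (GENCODE release 29). The strand setting of the counting is not given, so reads of these partners cannot be told apart from the members. IRF4, PRDM1 and IKZF3 had no such overlap. SPIB shares 372 exon bases with another protein-coding gene on its own strand.

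The vector comparisons asked which members changed when FOXM1 was put back. In OPM2 KO1R against KO1EV, limma called 0 of the 7 members, where 8.23% of all genes were called (3.1% higher, 5.12% lower). At an unadjusted p below 0.05 there was 1, IKZF1, with 45.82, 43.36 and 47.76 FPKM in KO1EV and 34.12, 37.27 and 38.24 in KO1R. These groups did not overlap, and the log2 difference was -0.31 ± 0.12 (limma adjusted p = 0.134). It was called with only these groups in the fit (adjusted p = 0.0195) and without the libraries that stood apart (adjusted p = 0.00153). IRF4 was 343.53, 335.37 and 312.57 in KO1EV and 332.1, 344.29 and 368.18 in KO1R, which overlap, and both stayed near KO1. The empty vector alone against KO1 gave 0 called members by limma (4.95% of all genes, 1.78% higher and 3.17% lower), and 1, POU2AF1, at an unadjusted p below 0.05 (log2 difference 0.18, adjusted p = 0.195). Against WT, KO1R had 2 called members, ELL2 and PRDM1, both lower, where 14.7% of all genes were called (6.38% higher, 8.29% lower). IRF4 in KO1R was -0.44 from WT and not called (limma adjusted p = 0.0578). The PRDM1 call (-0.34, limma adjusted p = 0.022) was lost without any 1 of 4 libraries (WT replicate 2 or 3, KO1R replicate 1 or 2) and with the length trend removed (adjusted p = 0.0509). Without the libraries that stood apart, KO1R against KO1EV called IKZF1 and POU2AF1 (-0.28 and -0.20), KO1EV against KO1 called PRDM1, IKZF3 and POU2AF1 (-0.15, -0.27 and 0.23), and IRF4 was called lower in KO1R than in WT (-0.44). Calls over all genes also rose in that fit, where 10274 genes were tested. They went from 848 to 2717 in KO1R against KO1EV, from 510 to 3295 in KO1EV against KO1, and from 1513 to 4583 in KO1R against WT.

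In Delta47 KO2R against KO2, 6 of 8 tested members were called, all lower, where 62% of all genes were called (25.2% higher, 36.8% lower). BACH2 was 5.26, 5.59 and 5.79 in KO2R, below every KO2 and WT library, and the log2 difference from KO2 was -0.79 (limma adjusted p = 3.55e-08). PRDM1 was 43.02, 46.42 and 47.75 in KO2R, also below KO2 and WT, with a difference of -0.47 (adjusted p = 3.83e-08). IKZF3 was 7.93, 7.88 and 8.48, POU2AF1 177.57, 177.23 and 168.9, and IKZF1 12.33, 12.24 and 12.77, each below its KO2 and WT range. Their log2 differences from KO2 were -0.40, -0.37 and -0.21. IRF4 was 163.87, 172.93 and 173.51 in KO2R, below its KO2 range, with a difference of -0.18 (limma adjusted p = 0.000283). The calls of IRF4 and IKZF1 were lost with the length trend removed (0.04 and -0.07, limma adjusted p = 0.284 and 0.181). Against WT, all 8 tested members were called lower in KO2R, where 69% of all genes were called (34.2% higher, 34.9% lower). With the length trend removed, 7 were called lower. BACH2 then lost its call (-0.05, limma adjusted p = 0.55), and PRDM1 stayed called at -0.11 (adjusted p = 0.0176). The 8 include BCL6, which passed the level only through WT and KO2 libraries, so its inclusion favours a difference.

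Fold changes varied with transcript length in several Delta47 comparisons. The rank correlation of length with log2 fold change across tested genes, which are not independent replicates, was -0.549 in KO2R against KO2, -0.398 in KO1 against WT, -0.0665 in KO2 against WT and 0.443 in KO2 against KO1. It was -0.481 in KO2R against WT. In OPM2 it ran from -0.326 in KO1EV against KO1 to 0.0447 in KO1 against WT. Most tested members have long transcripts: 9110.5 bases for BACH2, 6046 for ELL2, 5331 for IRF4 and 4919.5 for PRDM1, where the median of tested genes was 2716.25 in Delta47, and IKZF3 had 1552. With the trend removed, neither IRF4 nor IKZF1 was called in KO2R against KO2. BACH2 stayed called there (-0.46). In KO1 against WT, IRF4 (-0.31) and ELL2 (-0.51) stayed called.

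**Figure D5:**
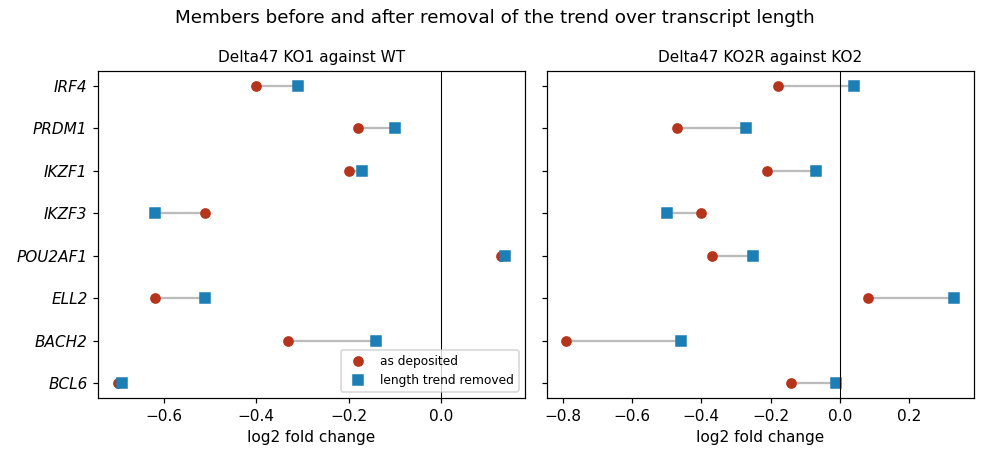
Log2 fold change (x axis) of the 8 tested Delta47 members (y axis), as deposited (circles) and after removal of the trend over transcript length (squares). In KO2R against KO2, IRF4 moves from -0.18 to 0.04 and ELL2 from 0.08 to 0.33.

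Other regulators of the same network were read from a list of 30 genes. In OPM2, 3 of 21 tested were higher and 3 lower in KO1, and 0 higher and 3 lower in KO2. Among all tested OPM2 genes, 14.5% were called higher and 6.72% lower in KO1, and 6.54% and 7.82% in KO2. RUNX3 was higher in KO1 (log2 fold change 0.73) and not called in KO2 (-0.09, limma adjusted p = 0.552). ID2, an inhibitor of E proteins, was higher in KO1 (0.32, adjusted p = 0.0458) and lower in KO2 (-0.83). In Delta47, 3 of 20 were higher and 11 lower in KO1, and 3 higher and 10 lower in KO2, with medians of -0.19 and -0.15 beside 0.02 and 0.05 over all tested genes. Among all tested Delta47 genes, 28.9% were called higher and 23.7% lower in KO1, and 28.4% and 15.2% in KO2. MEF2C, a B cell factor, was lower in both (-1.54 and -1.70), from 3.51 in WT, and IKZF2, a relative of IKZF1, was lower in both from 2.1 (-1.08 and -0.95). XBP1, the secretory factor downstream of PRDM1, fell in Delta47 KO1 by 0.25 and in KO2 by 0.16, rose in KO2R against KO2 by 0.26, and was not called in any OPM2 comparison.

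Plasma cell genes moved in both directions. Of the list, 9 of 15 tested were higher and 6 lower in Delta47 KO1, and 4 higher and 6 lower in KO2. Of all tested Delta47 genes, 28.9% were called higher and 23.7% lower in KO1, and 28.4% and 15.2% in KO2. SDC1 (CD138) was higher in both (1.10 and 0.77), and SLAMF7 (-1.49 and -2.67) and JCHAIN (-0.21 and -0.93) were lower in both. In OPM2, 1 of 17 was higher and 3 lower in KO1, and 5 higher and 2 lower in KO2, and SDC1 was lower in both (-0.29 and -0.31). Of all tested OPM2 genes, 14.5% were called higher and 6.72% lower in KO1, and 6.54% and 7.82% in KO2. Of B cell genes, 6 were tested in OPM2 and 7 in Delta47, with 2 higher and 0 lower in OPM2 KO1, 1 and 1 in OPM2 KO2, 2 and 2 in Delta47 KO1, and 2 and 3 in Delta47 KO2. CD79B was higher in OPM2 KO1 (1.45), Delta47 KO1 (0.78) and Delta47 KO2 (0.56), and was -0.01 and not called in OPM2 KO2 (limma adjusted p = 0.966). Lower calls were BLNK in OPM2 KO2 (-0.69), an adaptor of the B cell receptor, and, in both Delta47 clones, CR2 (-1.03 and -1.23), a complement receptor, and S1PR2 (-0.35 and -0.35). Cofactors of BCL6, BACH2 and the Ikaros proteins were read from a list of 25 genes. In Delta47 KO2R against KO2, 0 of 22 tested were higher and 17 lower, with a median of -0.36 beside -0.05 over all genes (25.2% higher, 36.8% lower), among them CHD4 (-0.83) and BCOR (-0.70). With the length trend removed, 1 was higher and 15 lower, with a median of -0.25, where 26.6% of all genes were called higher and 27.6% lower. In Delta47 KO1 2 were higher and 11 lower than WT, and in KO2 7 were higher and 4 lower. With the length trend removed, 4 were higher and 8 lower in KO1, and 6 higher and 7 lower in KO2. All tested genes then had 21.9% called higher and 23.4% lower in KO1, and 18.4% and 20.9% in KO2.

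The genes whose levels ran most like a member were taken as those with the highest smaller Pearson r of the 2 lines, over 15 OPM2 and 12 Delta47 libraries that share groups and scaling. ELL2 ran with NAMPT (0.99 and 0.98), TSPAN7 (0.93 and 0.98) and SKAP2 (0.93 and 0.91). IRF4 ran with ATF6 (0.95 and 0.98), TFG (0.94 and 0.96) and RHOQ (0.94 and 0.93). IKZF1 ran with CEP85 (0.94 and 0.95), IKZF3 with ASPM (0.92 and 0.92) and NSD2 (0.90 and 0.91), and PRDM1 with MYO9B (0.90 and 0.99). The highest values were lower for POU2AF1 (ZNF768, 0.88 and 0.88) and BACH2 (SPTBN1, 0.88 and 0.81). Between members, IRF4 and ELL2 had 0.77 and 0.91, IKZF1 and IKZF3 0.69 and 0.85, and PRDM1 and BACH2 0.72 and 0.96. IRF4 and IKZF1 had opposite signs in the lines, -0.68 in OPM2 and 0.94 in Delta47.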

How the data were processed

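RNA was sequenced as paired reads of 100 bases on a DNBSEQ instrument, per the labels' protocols, and the genome build was hg19, per the submitters' processing notes. For the aligner and the counter, a name is not given in the sources used here. OPM2 values were deposited as FPKM, per the file headers. Delta47 values were deposited by the authors without a unit and treated as a signal. Of 30 libraries 27 were used; 3 Delta47 columns whose name did not match 1 sample were not used. The tables held 16407 and 17286 genes, of which 23 and 24 symbols turned into dates were renamed.

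Testing took the genes with 3 or more libraries at a value of at least 1 (10309 and 11001). One limma-trend fit per line (limma 3.58.1, R 4.3.3) on log2(value + 1) held all groups, with two-sided tests, Benjamini-Hochberg adjustment over all genes and a threshold of 0.05, and was tested on simulated data. Single-read steps read from 2210 and 1854 sparse genes put the libraries' relative depth within -0.07 to 0.10 and -0.09 to 0.12 (log2), where pair estimates scattered with an SD of 0.16 and 0.12.

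Alternatives were a pseudocount of 0.1, no filter, quantile scaling, only the groups compared, a replicate block, each library left out, the 2 OPM2 libraries that stand apart left out, and removal of the length trend. That last one used the median length of transcripts with a RefSeq match (GENCODE release 29), because the tables hold no length, and was set up in this form after seeing the data. Named genes are the 10 members, FOXM1, fixed markers, up to 4 called genes per list by smallest adjusted p, and the 3 most alike genes of a member. The members and lists were chosen with earlier results of these data known.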

Additional observations from a re-analysis of the deposited data

How the results depend on the processing

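Over 82 member comparisons and 1024 refits, 949 kept their side of the threshold (37 of them changed sign with no call in either fit), 42 lost the call, 32 gained one and 1 turned direction: IRF4 in Delta47 KO2R against KO2, 0.04 with the length trend removed. In OPM2 KO1 against WT the count of 2 called members became 1 with no filter, 1 with quantile scaling, 4 with only the groups compared, 4 without the 2 libraries that stand apart, and 1 whichever single library was left out. In KO2 against WT the count of 3 became 0 with only the groups compared (3 at an unadjusted p below 0.05, limma) and 5 without the 2 libraries. In OPM2 KO2 against KO1 the count of 1 became 2 with quantile scaling, 0 with only the groups compared (2 at an unadjusted p below 0.05), 4 without the 2 libraries, and 0 to 4 with single libraries left out (0 without KO1 replicate 2, 4 without KO2 replicate 3). The 0 calls of KO1EV against KO1 became 3 without the 2 libraries, and the 0 of KO1R against KO1EV became 1 with only the groups compared and 2 without the 2 libraries. KO1R against WT went from 2 to 1 with the length trend removed and to 1 to 2 with single libraries left out. In Delta47 KO2 against KO1 the count of 5 went to 3 without KO1 replicate 2 or KO2 replicate 2 (range 3 to 4 over single libraries); the other Delta47 counts stayed within 1.5 times. Calls over all genes changed too. In OPM2 KO2 against KO1 there were 3086 in the main fit and 3193 with quantile scaling. There were 1180 with only the groups compared and 6951 without the 2 libraries. For KO1EV against KO1 they went from 510 to 3295 without the 2 libraries, and for KO1R against KO1EV from 848 to 2717. In KO1 against WT they went from 2187 to 2454 with no filter, where fewer members were called. The cause of these changes was not tested.

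Over all genes, the calls of OPM2 KO1 against WT went from 2187 to 5580 with only the groups compared, and those of KO2 against WT from 1480 to 361. Replicate numbers were not taken as pairing the samples, because not every same-numbered pair correlated above 0.1 (9 of 30 in OPM2 and 4 of 18 in Delta47 did, beside 11 of 60 and 7 of 36 pairs with different numbers). Same-numbered libraries of different groups correlated at -0.20 to 0.75 (median 0.07) in OPM2 and -0.22 to 0.20 (median 0.02) in Delta47, and 9 of 15 and 6 of 12 libraries were closest to their own number. Both libraries that stand apart are replicate 3. With a replicate block the count in OPM2 KO2 against KO1 was 2 (IKZF3 gained, adjusted p = 0.0222), and IKZF1 in Delta47 KO2 against KO1 lost its call (adjusted p = 0.0716). BCL6 in Delta47 KO2 against KO1 and KO2R against KO2 has no value with only the groups compared, because it then misses the filter. Depth is unknown, and BCL6, SPIB and PAX5 lie near the lowest values that can be read.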
